A study of Drosophila melanogaster with 2 samples.

Results

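The peaks described here are the intergenic peaks of the Camta-eGFP protein in Drosophila melanogaster embryos that lie away from promoters. They were taken from the authors' dm6 list of reproducible peaks, the list that passed the irreproducible discovery rate (IDR) threshold. A peak was kept when its summit, the point of strongest signal, lay more than 500 bp from every annotated transcript start and outside every annotated gene. Of 4033 IDR peaks, 477 met this rule, a share of 11.8% (95% Wilson interval 10.9 to 12.9). Of the others, 2148 had a summit within 500 bp of a start and are called promoter peaks, and 1408 had one elsewhere within a gene. The study made chromatin immunoprecipitation and sequencing (ChIP-seq) libraries with an antibody against GFP. Its single group holds 2 biological replicates, numbered 2 and 3, of whole embryos collected over 0 to 24 h, males and females pooled, from the Camta-MiMIC-GFP strain. In this strain an eGFP exon inserted in an intron of Camta gives a Camta-GFP fusion made from the gene's own locus, so signal from all tissues and stages of the collection is summed. There is no second genotype, treatment or time to compare, the depth of sequencing is unknown, and the control experiment was not analysed here.

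Camta belongs to the calmodulin-binding transcription activators (CAMTA), a family of DNA-binding proteins that also bind calmodulin, the main calcium sensor of the cytoplasm. The family binds a CGCG box in vitro. In flies, sequence between genes holds many enhancers, stretches that raise transcription of a gene from a distance, and those of developmental genes can lie many kilobases from the start they act on or beyond a neighbouring gene. A ChIP-seq peak shows where the tagged protein was enriched, bound directly or through other proteins, and does not say which gene, if any, it acts on. Each peak is therefore named here by the protein-coding genes on its left and right.

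The sequence at the summit differed widely between peaks. Shown first are 3 of the 5 strongest intergenic peaks, ranked 2, 4 and 5 of the 477 by signal, to show how unlike the strongest sites are. The peak between slp1 and slp2 follows because it is the only one of the 477 with the promoter element Motif 1 (GGTCACAC) in its window, and holds it on one strand in 2 copies. The peak beside the Hox gene abd-A and a peak between the cell death genes grim and rpr were chosen after their values were seen. The last is the peak farthest from any transcript start. Each run is the summit base with 50 bases to either side, plus strand, 5′ to 3′, from the RefSeq Release 6 assembly, and capitals mark matches on either strand to a panel of 26 motifs described further on. In the same order they stand at chr3R:16222431-16222531, chr2L:2202344-2202444, chr2L:1638728-1638828, chr2L:3832474-3832574, chr3R:16798808-16798908, chr3L:18348792-18348892 and chr3L:10735263-10735363.
mtSSB/tara peak: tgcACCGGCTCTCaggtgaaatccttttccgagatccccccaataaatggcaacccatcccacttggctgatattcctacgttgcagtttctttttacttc
COX7AL2/CG31668 peak: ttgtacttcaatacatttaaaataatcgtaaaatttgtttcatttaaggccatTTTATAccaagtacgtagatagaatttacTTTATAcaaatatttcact
RFeSP/chinmo peak: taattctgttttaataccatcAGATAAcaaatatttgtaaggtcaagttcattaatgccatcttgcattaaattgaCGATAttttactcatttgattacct
slp1/slp2 peak: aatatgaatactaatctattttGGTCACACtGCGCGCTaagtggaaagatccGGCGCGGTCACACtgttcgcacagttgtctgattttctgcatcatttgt
Glut3/abd-A peak: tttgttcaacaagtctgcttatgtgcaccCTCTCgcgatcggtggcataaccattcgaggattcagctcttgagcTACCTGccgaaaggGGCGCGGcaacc
grim/rpr peak: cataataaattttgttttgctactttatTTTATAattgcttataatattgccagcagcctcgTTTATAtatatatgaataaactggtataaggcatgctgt
NijA/CG43245 peak: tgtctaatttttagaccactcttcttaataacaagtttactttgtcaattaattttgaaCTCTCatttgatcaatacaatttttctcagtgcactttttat
The window between mtSSB and tara is 47.5% G and C and holds a GAGA site beside the CCGG control sequence. The window between COX7AL2 and CG31668 is 22.8% G and C and holds 2 TATA boxes (TATAAA, read here on the minus strand). The window between RFeSP and chinmo is 26.7% G and C, with the DRE core CGATA and a GATA factor site. In the slp1/slp2 window, 1 copy of Motif 1 overlaps a CGCG box and the other stands next to one, in a window of 43.6% G and C. The Glut3/abd-A window had the highest content of the 7, at 54.5%.

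The median signal of intergenic sites was close to that of the other sites on the list, while the third quartile was lower than at promoters or within genes. The authors' signal value of the 477 peaks had a median of 143.1 (quartiles 112.3 and 203.4, range 95.6 to 1189.7), against 148.9 for promoter peaks, 144.6 for peaks within genes and 146.7 for all 4033. The 95% interval of the members' median ran from 136.6 to 154.1 and includes the other medians. Signal above 500 was reached by 19 intergenic peaks (3.98%) and 113 promoter peaks (5.26%), a difference of -1.28 percentage points (95% Newcombe interval -3.03 to 1.04). Within genes 44 peaks (3.125%) reached it, a difference of 0.858 points (-0.903 to 3.15). The IDR list sets a shared floor, with a lowest signal of 95.3 at promoter peaks and within genes. The third quartile was 232.5 at promoter peaks and 213.2 within genes. Among the 100 strongest IDR peaks 11 were intergenic, among the strongest 500 there were 49 (9.8%), and among the strongest 1000 there were 102 (10.2%). Promoter peaks, 53.3% of the list, were 62 of the strongest 100, 308 of the strongest 500 (61.6%) and 578 of the strongest 1000 (57.8%). Peaks within genes, 34.9% of the list, were 27, 143 (28.6%) and 320 (32.0%) of these. No source used here states how the authors scaled the signal. The values are compared within 1 list only, and the intervals cover the number of peaks, not the spread between embryos.

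A smaller share of intergenic than of promoter candidates overlapped an IDR peak. The pooled relaxed list, which holds peaks and background candidates before thresholding, has 30000 regions, of which 16.3% overlapped an IDR peak. The share was 11.99% of the 4605 regions that met the intergenic rule, against 28.7% of 9312 promoter regions and 10.4% of 16083 within genes. The 4053 intergenic relaxed regions that overlapped no IDR peak are used below as the background that the same immunoprecipitations gave in the same kind of sequence.

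The strongest intergenic peak lay beside a Polycomb group gene on 2R. With a signal of 1189.7 it ranked 18 of all 4033 IDR peaks, and its signal was 484.5 in replicate 2's list, rank 14, and 707.6 in replicate 3's list, rank 21. Its region ran from 13035157 to 13035528, with the summit at 13035347. It lay 27436 bp beyond the end of Su(z)2, which encodes a Polycomb group protein related to Psc, and 11909 bp from the nearest start, that of CG13323. A second of the 12 strongest peaks, with a signal of 690.1, lay 7794 bp beyond the 3′ end of Psc, a subunit of Polycomb repressive complex 1, and next to CG13321. Its signal was 228 in replicate 2's list and 466 in replicate 3's. Both peaks were downstream of both of their flanking genes, an arrangement seen at 18.03% of the 477.

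The next in strength, between mtSSB, which encodes the mitochondrial single-stranded DNA-binding protein, and tara, a nuclear cofactor of the trithorax group, had a signal of 968.6 and lay on 3R from 16222321 to 16222658. Its signal was 433.3 in replicate 2's list and 529.5 in replicate 3's, and its summit lay 3170 bp upstream of tara but 914 bp from the start of a non-coding RNA gene, lncRNA:CR45643. The peak between blw, the alpha subunit of mitochondrial ATP synthase, and CycB, which encodes cyclin B, had a signal of 867. It sat in a gap of 1340 bp between the 3′ ends of the convergent genes, 749 bp from blw and 592 bp from CycB. The peak between COX7AL2 and CG31668 had a signal of 826.7, with 315.1 in replicate 2's list and 511.8 in replicate 3's.

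The gap between RFeSP, the Rieske iron-sulphur protein of the respiratory chain, and chinmo, a zinc finger transcription factor of neuronal timing and stem cells, held 2 of the 12 strongest peaks. Their signals were 776.3 and 653.8, at 12480 and 18414 bp upstream of chinmo, and both lay nearer to a start of a non-coding RNA gene. The stronger had 277.5 in replicate 2's list and 502.1 in replicate 3's, and the weaker 267.8 and 386.2. The peak between CG13896 and hng3 had a signal of 756.1 (304.1 in replicate 2's list and 441.4 in replicate 3's), 12882 bp upstream of CG13896. The peak between C15, a homeobox gene, and sp3 had 746.2 and lay 548 bp upstream of sp3. Near Optix, a Six-family homeobox gene of the eye and wing, the peak had a signal of 710.0 and lay 649 bp upstream of CG14762, while Optix itself began 16879 bp away.

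The last of the 12 were the peak between CG43131 and RabGGTa, with a signal of 660.1, and that between CG3149 and AdamTS-B, with 589.5. RabGGTa encodes a subunit of the enzyme that prenylates Rab proteins, and AdamTS-B a secreted metalloprotease. All 12 peaks were among the strongest 4033 regions of both replicates. Their order differed a little between lists. The C15/sp3 peak ranked 91 in replicate 2 and 57 in replicate 3, and the CG43131/RabGGTa peak 55 and 117. Of the 12, 4 lay over 5 kb from every start and 4 within 1 kb of one.

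**Figure D1:**
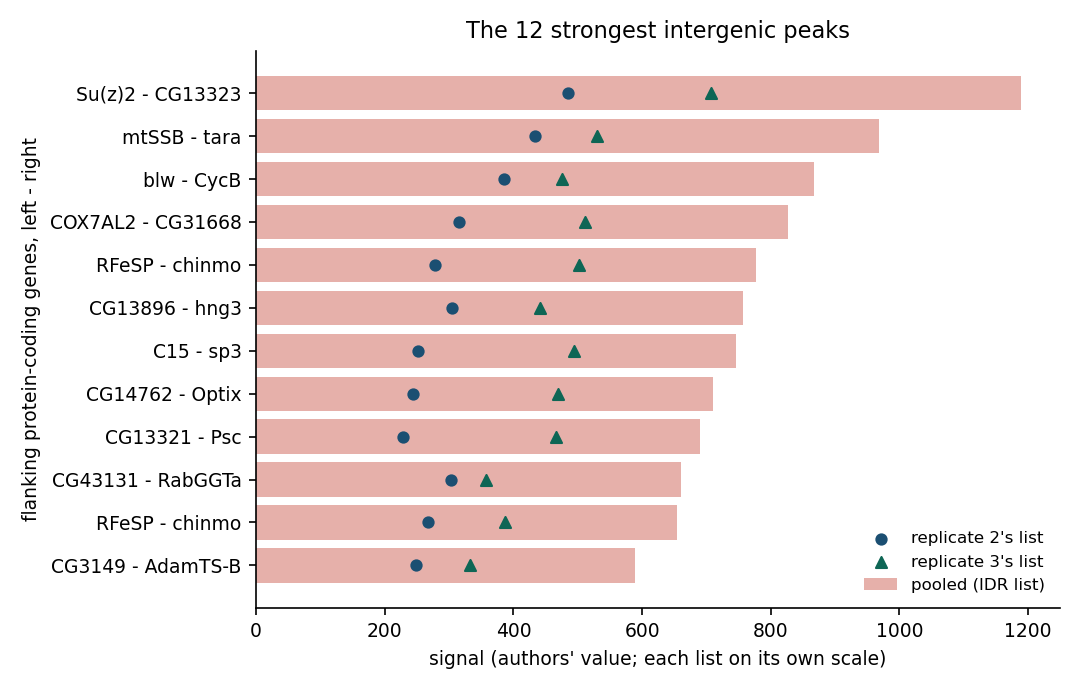
Authors' signal value (horizontal axis, no unit given) of the 12 strongest intergenic peaks, named by their left and right protein-coding genes. Bars show the IDR list, circles replicate 2's list and triangles replicate 3's list, each on its own scale. The IDR values run from 1189.7 at Su(z)2/CG13323 to 589.5 at CG3149/AdamTS-B.

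Both replicates listed every one of these sites, as they did nearly every IDR peak. All 477 intergenic peaks overlapped a region of replicate 2's relaxed list and one of replicate 3's. At the depth of the strongest 4033 regions of each list, 361 peaks (75.7%, 95% Wilson interval 71.6 to 79.3) had at least 50% of their length covered in both. Another 107 were covered in 1 list only, 47 in replicate 2's and 60 in replicate 3's, and 9 in neither. Coverage also depends on where each list sets the ends of a region, so a peak without it need not be weak. The RasGAP1/CG10809 peak, named after its values were seen, had an IDR signal of 532.6, rank 153, and was covered in neither. The strongest regions that overlapped it ranked 108 in replicate 2's list and 173 in replicate 3's. The share in both was 73.5% of promoter peaks and 75.5% of peaks within genes, differences of 2.17 points (Newcombe interval -2.27 to 6.28) and 0.184 points (-4.41 to 4.49). Signal had a median of 59.9 in replicate 2's list (range 13.96 to 484.5) and 87.2 in replicate 3's (35.1 to 707.6). Across the 477 peaks, Spearman's rho between the lists was 0.749 and Pearson's r of log10 signal 0.849. Of all 4033 IDR peaks, 4029 overlapped a region of both lists, with a rho of 0.742 and an r of 0.834. These are descriptions across peaks, since both lists were made with 1 further file in common and the IDR list itself asks for agreement.

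Single sites differed more than the whole. The weakest of the 3 peaks between mtSSB and tara had a signal of 101.8 in the IDR list. It had 13.96 in replicate 2's list, where it ranked 27230, and 88.3 in replicate 3's, where it ranked 2093. A peak between E5 and ems went the other way, with 55.3 in replicate 2's list, rank 2332, and 35.1 in replicate 3's, rank 8619. Both sites lay at the weak end of the IDR list, with IDR signals of 101.8 and 96.0. Both were named after their values were seen.

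**Figure D2:**
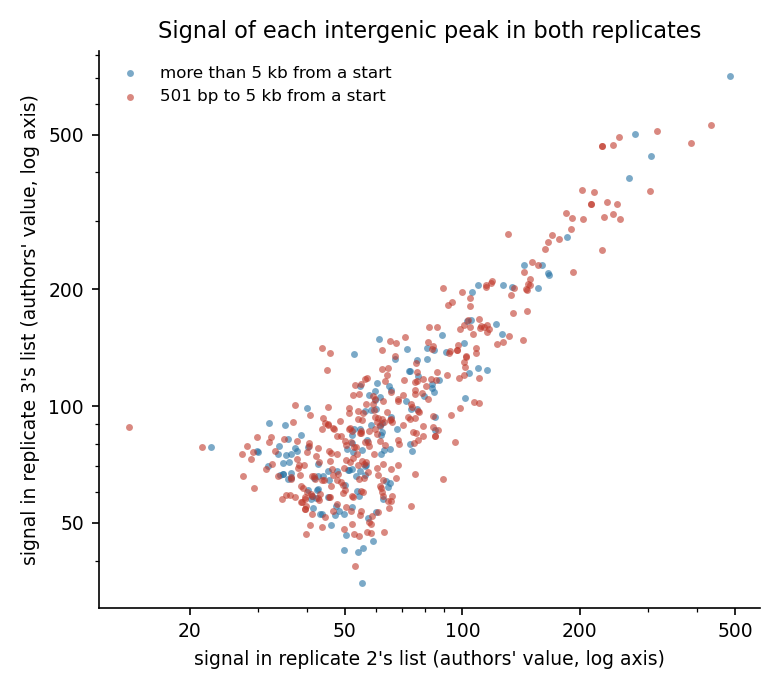
Authors' signal value of the 477 intergenic peaks in replicate 2's list (horizontal) against replicate 3's list (vertical), both on log axes. Blue points are peaks more than 5 kb from a transcript start and red points the nearer ones. Both colours lie along the same band, and the point far to the left is the weak mtSSB/tara peak at 13.96 and 88.3.

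Intergenic peaks lay closer to starts than an even spread over intergenic sequence would place them. Their median distance to the nearest start of any annotated transcript was 2902 bp (quartiles 1293 and 5999), against 3257 bp for the 4053 other intergenic relaxed regions. The eligible sequence, all bases outside genes and over 500 bp from a start, came to 36.5 Mb and held 13.1 peaks per Mb. Between 501 and 1000 bp from a start there were 87 peaks, or 31.0 per Mb. At 1 to 2 kb there were 99 (21.8 per Mb), at 2 to 5 kb 144 (16.2 per Mb) and at 5 to 10 kb 97 (13.6 per Mb). At 10 to 20 kb there were 43 (8.75 per Mb), and beyond 20 kb 7 (0.848 per Mb).

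The other relaxed regions showed much of the same fall, with 195 per Mb nearest to starts and 15.3 per Mb beyond 20 kb. The nearest class took 18.2% of the peaks and 13.5% of the other regions, a difference of 4.77 points (Newcombe interval 1.38 to 8.62). Beyond 20 kb the shares were 1.47% and 3.11%, a difference of -1.64 points (-2.59 to -0.034). In the 4 classes between, each interval of the difference included 0. The difference in the nearest class was not seen against the 228 of these regions with a q value of 0.01 or less, of which 17.98% lay there (0.257 points, -6.11 to 6.05). Beyond 20 kb it was -2.48 points (-5.95 to -0.0736) against them. Over 5 kb from a start lay 147 peaks (30.8%), against 34.5% of the other regions, a difference of -3.65 points (-7.89 to 0.871), and 55.5% of the eligible bases. Against the 228 regions of low q the difference was -1.2 points (-8.66 to 5.94). Part of those bases lies beyond the first or last IDR peak of an arm. Without these ends the share of eligible bases over 5 kb was 43.7%, and the density beyond 20 kb was 3.59 peaks per Mb in place of 0.848. It was then 31.8 per Mb nearest to starts and 22.5, 17.0, 15.0 and 11.5 in the classes between, so the fall with distance was seen with and without the ends. Median signal by class went through 158, 161, 136, 129, 158 and 120.04 from the nearest to the farthest, without a steady trend.

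**Figure D3:**
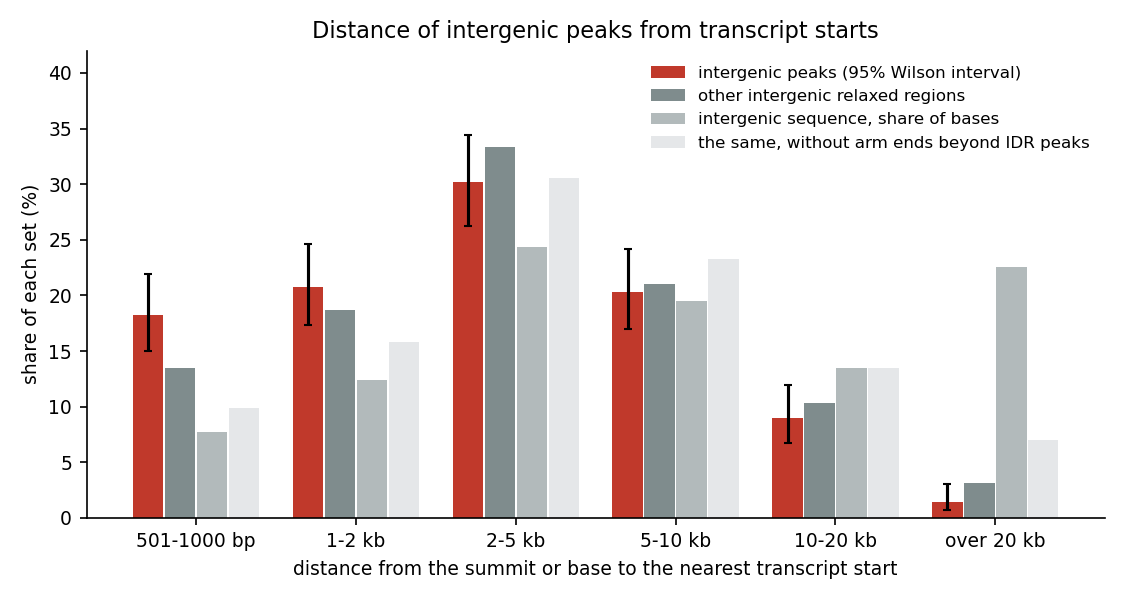
Share (%) of intergenic peaks (red, with 95% Wilson intervals), of the 4053 other intergenic relaxed regions (dark grey), of eligible intergenic bases (mid grey) and of the same bases without the arm ends beyond the first and last IDR peaks (light grey) in 6 classes of distance to the nearest transcript start. Peaks exceed both shares of bases up to 2 kb and fall under both beyond 10 kb. Over 20 kb lie 1.47% of peaks, 22.6% of bases and 7.01% of bases without the ends, and from 2 to 10 kb the order depends on the ends.

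The peaks farthest from any start lay in gaps around few genes. The farthest, 36612 bp from the nearest start, stood between NijA, which encodes the cell surface protein Ninjurin A, and CG43245. It had a signal of 202.3, with 83.4 in replicate 2's list and 113.7 in replicate 3's. The same gap, 75047 bp long, held the peaks at 32856 bp, with a signal of 96.7, and at 31881 bp, with 360.7. A peak between grim and rpr, genes that trigger programmed cell death in the embryo, lay 33780 bp from a start with a signal of 97.2. A stronger one in that gap, with 188.4, lay 24857 bp away. Both are upstream of grim and beyond the 3′ end of rpr. The fifth stood between vvl, a POU homeobox gene, and Prat2, an enzyme of purine synthesis, at 26244 bp with a signal of 120.04.

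Peaks lay close to the 500 bp limit on both sides. Just inside it were peaks at 501 bp between CG17896 and CG17778, with a signal of 575.1, at 501 bp between CG10479 and PVRAP, with 473.5, and at 502 bp between CG9705 and CG9706, with 139. Just outside were peaks at 498 bp from a start of CG3348, with 125.6, at 494 bp between nej and btd, with 274.5, and at 493 bp between CG30103 and nw, with 136.2. PVRAP encodes an adaptor of the PDGF/VEGF receptor, nej the CBP acetyltransferase and btd a zinc finger protein of head segmentation.

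More peaks lay on the 5′ sides of their neighbours than on the 3′ sides. A summit was upstream of both flanking protein-coding genes at 163 peaks (34.2%), against 29.5% of the other relaxed regions, a difference of 4.71 points (Newcombe interval 0.359 to 9.29), and 24.6% of the eligible bases. Against the 228 regions of low q, a comparison chosen after seeing the data, the difference was 1.28 points (-6.28 to 8.51). A summit was upstream of 1 gene at 228 (47.8%), against 49.9% of the other regions, and of neither at 86 (18.03%), against 20.5%, a difference of -2.45 points (-5.88 to 1.45). Counted with all annotated genes as neighbours, the share upstream of both was 28.7%. A non-coding RNA gene was the nearest neighbour on at least 1 side at 232 peaks (48.6%), with no matching count given for the other regions. Median signals were 149 upstream of both genes, 139.5 upstream of 1 and 155 downstream of both.

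Genes beside an intergenic peak had a promoter peak about as often as all genes. At 142 of the 477 (29.8%) at least 1 flanking protein-coding gene had a promoter IDR peak, and at 22 both had one. Over genes, 102 of the 623 that flanked an intergenic peak (16.4%) had a promoter peak, against 2619 of all 13945 (18.8%). Another IDR summit of any kind lay within 5 kb of 194 peaks (40.7%), and 106 (22.2%) had none within 20 kb. The median distance to the next IDR summit was 7057 bp. Inside an annotated transposable element fell 2 summits, 1 between CG43774 and ed and 1 between del and E2f2, both named after this was seen. No matching values for these distances and this overlap are given for the other IDR peaks. Whether they are particular to intergenic peaks was not tested.

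The arms differed in density. There were 119 peaks on 2L, or 17.6 per Mb of eligible sequence, and 138 on 3L, or 15.3 per Mb. On 3R there were 95 (12.4 per Mb), on X 52 (9.79 per Mb) and on 2R 67 (8.95 per Mb). The small chromosome 4 held 6 (22.2 per Mb). The other relaxed regions were also densest on 4 and 2L, at 148 and 130 per Mb, and sparsest on X and 2R, at 85.9 and 87.2. The share of peaks on 2L was 3.28 points above that of the other regions (Newcombe interval -0.61 to 7.54). On every arm the interval of this difference ran from a negative to a positive value. The arm ends beyond the IDR peaks were not left out of these rates.

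Many intergenic peaks shared a gap between protein-coding genes. The 477 peaks lay in 337 gaps, of which 255 held 1 peak each and 82 held the other 222. The gaps with a peak had a median length of 11377 bp, against 4273 bp for all 3590 gaps over 1000 bp. A longer gap offers more sequence for a peak, so gaps picked for holding one tend to be longer. The 337 also include some gaps under 1000 bp, which the 3590 leave out. Summits could be close, with the shortest distance from a member to the next IDR summit at 199 bp. No matching count of shared gaps is given for the other relaxed regions. Peaks in 1 gap share their neighbours, so neither peaks nor gaps are replicates.

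The most peaks, 8, stood between hng3 and CG13898 on 3L, a gap of 47937 bp. Their signals ran from 100.3 to 281.3. Next to it, the gap between CG13896 and hng3 held another 4, with signals from 103 to 756.1, so that 12 peaks flanked hng3. The gap between RFeSP and chinmo held 7, from 116.7 to 776.3, with the largest summed signal of the 337 gaps, 2550. The gap between NijA and CG43245 held 7, from 96.7 to 360.7, all on the CG43245 side of its middle. The gap between CG44362 and CG7560 held 7, from 105 to 260.2.

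**Figure D4:**
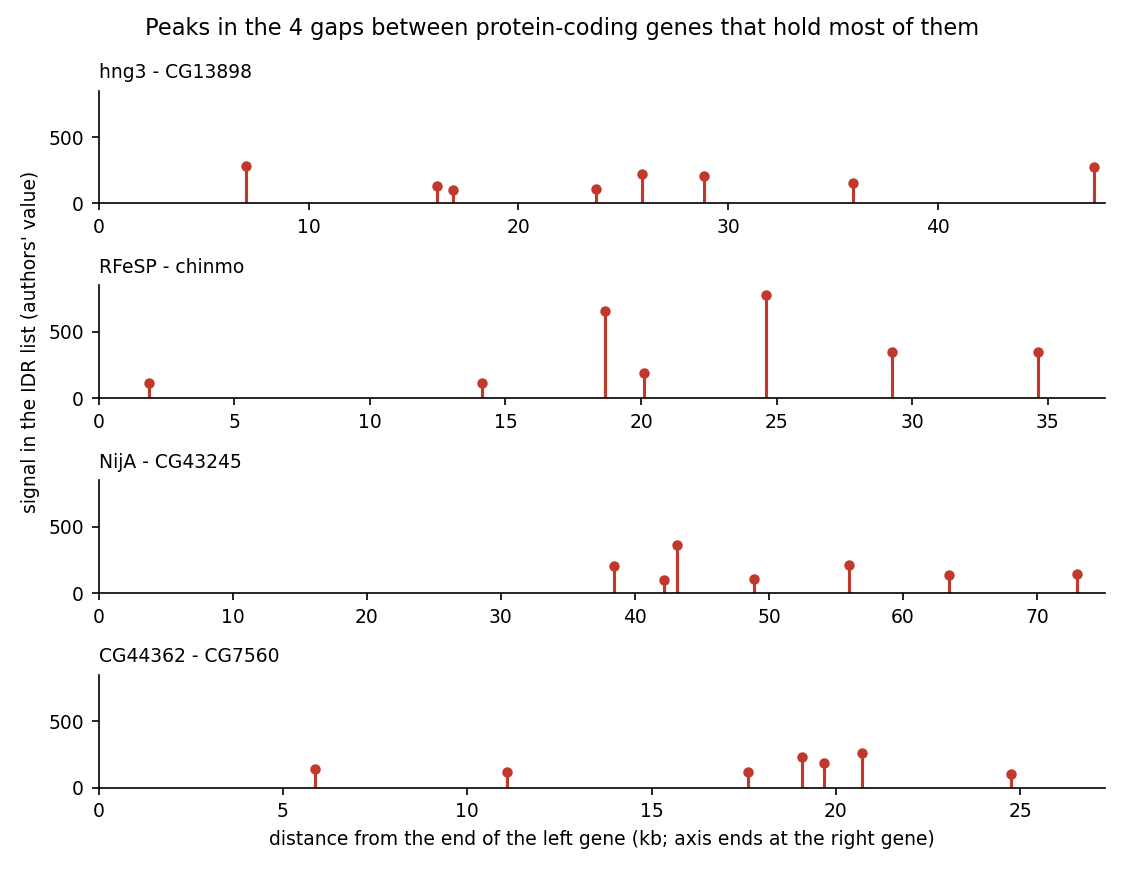
Authors' signal value in the IDR list (vertical axis) of each intergenic peak in the 4 gaps that hold most of them, against distance in kb from the end of the left gene; each axis ends at the right gene. The RFeSP/chinmo gap has the highest peaks, 776.3 and 653.8, and the hng3/CG13898 gap the most, 8.

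Genes of the developmental lists stood beside these peaks in larger shares than all genes together. Of all 13945 protein-coding genes, 4.47% flanked at least 1 intergenic peak. Of 44 patterning and Hox transcription factors, 17 did (38.6%). Of 47 signalling ligands, receptors and inhibitors, 14 did (29.8%). Of 27 mesoderm, muscle and heart regulators, 9 did (33.3%), and of 36 neurogenesis transcription factors 9 (25%). Axon guidance and cell adhesion genes followed with 7 of 46 (15.2%). The other lists were near the share of all genes: 1 of 21 ecdysone and nuclear receptor genes, 1 of 29 ion channel and calcium signalling genes, 3 of 91 cytosolic ribosomal protein genes and 6 of 120 odorant and gustatory receptors. The lists were chosen with earlier results of these data known, so the shares are descriptions. Whether a list differs from all genes was not tested.

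Genes of the developmental lists also had more eligible sequence beside them than all genes. How far the counts depend on that was not tested. The patterning list had a median of 17759 bp of eligible sequence in the gaps beside a gene, against 71 bp over all protein-coding genes. The median was 3367 bp for the signalling list, 10435.5 bp for the neurogenesis list and 7607 bp for the mesoderm list. Per Mb of that sequence, counting each pair of a peak and a flanking gene, the patterning list had 27.7 pairs, the signalling list 38.8, the neurogenesis list 21.4 and the mesoderm list 48.8, against 13.4 over all genes. Axon guidance genes had 14.8 per Mb, from a median of 17693 bp. Odorant and gustatory receptors had 9.99, ion channel and calcium signalling genes 10.2, nuclear receptor genes 8.41 and ribosomal protein genes 5.10. Among genes with over 50 kb of such sequence, 6 of 8 patterning genes flanked a peak, against 67 of 245 over all genes. Among those with 20 to 50 kb it was 6 of 12, against 183 of 694, and with 10 to 20 kb 4 of 11, against 106 of 723. The arm ends beyond the IDR peaks were not left out of these counts or rates. Over all genes, those with over 50 kb had 5.78 pairs per Mb, against 15.8 with 20 to 50 kb and 14.3 with 10 to 20 kb. The contrast over 50 kb is therefore not matched for sequence poor in peaks.

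**Figure D5:**
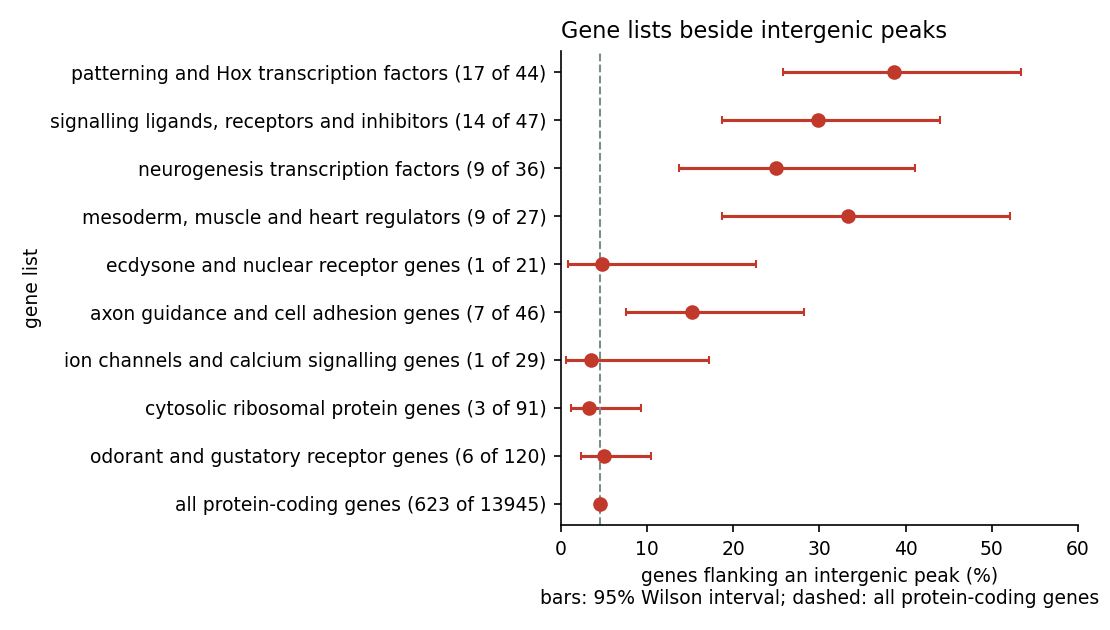
Share (%) of the genes of each list that flank at least 1 intergenic peak, with 95% Wilson intervals. The bottom row and dashed line give the share of all protein-coding genes, 4.47%. The intervals treat genes as independent, though neighbouring genes of a list can share a peak. The 4 lists of developmental regulators lie between 25% and 38.6%. All lists were chosen with earlier results of these data known.

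In the patterning list, the pair slp1 and slp2, forkhead-domain factors of segmentation, held the strongest peak. It had a signal of 577, with 217 in replicate 2's list and 356 in replicate 3's, and lay 4316 bp upstream of slp2 and 5425 bp beyond the end of slp1. A second peak of 189.6 lay 809 bp beyond slp1. The Hox gene abd-A had a peak of 511.8 (203.4 in replicate 2's list and 302.9 in replicate 3's), 8356 bp beyond its 3′ end on the side of Glut3. The head gap gene oc had 3 peaks, from 102 to 247.9, of which the strongest lay downstream of it. None of the 17 patterning genes that flanked a peak had a promoter IDR peak, and 2 of the 44 on the list had one.

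In the signalling list, sty, an inhibitor of receptor tyrosine kinase signalling, had 4 peaks in the gap to Ids, all beyond its 3′ end. Their signals were 447.8, 323, 260 and 113.8. The Hedgehog receptor gene ptc had 1 peak 5277 bp upstream, with a signal of 304.4 (105.6 in replicate 2's list and 196.8 in replicate 3's). This gene was the only 1 of the 14 with a promoter IDR peak, and 11 of the 47 genes on the list had one. The EGF receptor ligand gene vn had peaks of 242.2 and 109.6 upstream of it. A peak of 203.2 lay between upd3 and upd1, ligands of the JAK/STAT pathway, 9646 bp beyond the end of upd3 and 11112 bp beyond that of upd1.

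In the neurogenesis list, zfh2, a zinc finger and homeobox gene, had a peak of 484.9 on chromosome 4, 3915 bp upstream, and a second of 118.6. The LIM-homeobox gene tup had 2 peaks upstream of it, 233.6 and 183.4, and SoxN, a Sox gene of neural progenitors, had 2 beyond its end, 226.1 and 129. The homeobox gene Dr, which patterns the dorsal neuroectoderm, had 158.8 and 103.9. In the mesoderm list C15 led with the 746.2 peak described above and had 2 more, 136.7 and 124.8, upstream. The T-box gene mid, which acts in heart formation, had peaks of 386.9 and 166 beyond its end and 119 upstream. The T-box genes Doc1 and Doc2, which act in the amnioserosa and heart, shared 4 peaks in the divergent gap between them, from 120.1 to 315.4.

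Of the axon guidance genes, robo2, a receptor for Slit, had peaks of 283.7 and 164.2 upstream. The adhesion genes ed and caps had 271 and 202.3 as their strongest, that of ed inside an annotated transposable element. The Netrin receptor gene unc-5 had a peak of 203.4, which lay 822 bp upstream of unc-5 and 266 bp beyond Hr51, the nuclear receptor gene, so it counts for both lists. SERCA, the calcium pump of the endoplasmic reticulum, had a peak of 121.8 at 571 bp upstream. The ribosomal protein genes RpL17, RpLP0 and RpS15Aa had peaks of 130.4, 123.7 and 121.5. Each also had a promoter IDR peak, as did 68 of the 91 genes on that list. The strongest peaks beside chemoreceptor genes were 224.8 at Or56a, 182.6 at Gr89a, 178.1 at Gr93a and 162.8 at Gr93d. The Or56a peak lay 54503 bp from it and 90 bp beyond CG8517.

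Camta, its target Fbxl4 and the calmodulin gene Cam flanked no intergenic peak. Most genes flanked none, since 4.47% of all protein-coding genes flanked at least 1. Fbxl4 had 0 bp of eligible sequence beside it, so by the rule it could not flank a peak. Cam had 706 bp and Camta 13589 bp. The nearest intergenic peak was 398.6 kb from Camta, 246 kb from Fbxl4 and 516.5 kb from Cam.

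No motif was called at the intergenic summits. The panel of 26 motifs was searched on both strands within 50 bp of each summit and in windows of equal length centred 500 bp to either side. A call needed an adjusted p under 0.05 in the exact McNemar test against both flanks and a ratio of summits to flanks at or beyond 1.5, up or down. Of the 26, 0 were called (0%), and 1 had an unadjusted p under 0.05. This was the CCGG control, CCGG with a base other than T before and other than A after it, at 2.52% of summits and 7.13% of flanks (exact McNemar test, p = 0.00289, adjusted p = 0.0751). With flanks at 1000 bp it was called, at 2.52% of summits and 9.01% of flanks (exact McNemar test, adjusted p = 0.00515), and likewise in the strongest 4033 regions of replicate 3 alone, at 1.46% and 8.05% (adjusted p = 0.000138).

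None of the other 25 motifs had an unadjusted p under 0.05, though some shares differed by more than 1.5 times between summits and flanks at low counts. The TATA box was in 17.2% of summit and 12.3% of flank windows (ratio 1.40, adjusted p = 0.862 in the exact McNemar test). The heat shock element GAANNTTC was in 5.03% and 2.73% (ratio 1.85, adjusted p = 0.862 in the exact McNemar test). The CGCG box, CGCG with the same outer bases as the control, was at 5.03% of summits and 6.71% of flanks. Its other control, GCGC with those outer bases, was at 9.85% and 8.81%. GAGA (GAGAG) was at 9.43% and 11.1%, the homeodomain site TAATTA at 6.71% and 7.13%, the zld site CAGGTA at 1.68% and 1.47%, and the GATA factor site AGATAA at 6.92% and 5.24%. The DRE TATCGATA, site of the promoter factor DREF, was in 1 window of 477, and the CRE TGACGTCA in 0, which allows a share of up to 0.799% by the Wilson interval. Of the rest, the initiator TCAGTT was at 8.39% of summits and 6.18% of flanks, the forkhead site TGTTTAC at 2.52% and 1.15%, and the caudal site TTTATG at 13.0% and 12.7%. The ETS core CCGGAAGT was in 4 summit windows and no flank window, and the grainyhead site AACCGGTT in 1 and none. The E-box CACGTG was at 0.419% of summits and 1.05% of flanks, the E-box CAGCTG at 2.10% and 3.46%, and the E-box CATATG at 5.24% and 4.82%. The K50 homeodomain site TAATCC was at 2.10% and 3.25%. The Su(H) site TGGGAA, the AP-1 site TGANTCA, the CTCF core AGGNGGC and a run of 8 A were in 2.31% to 6.29% of summit windows. The ETS core had an adjusted p of 0.862 and the others of 1 (exact McNemar tests). No motif of the panel was found at 128 summits (26.8%).

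The DRE and Motif 1, elements of promoters, were less frequent at intergenic than at promoter summits, and the initiator and the TATA box were not. The DRE core CGATA was at 10.5% of intergenic and 23.7% of promoter summits, a difference of -13.3 points (Newcombe interval -16.3 to -9.72). The full DRE was at 0.21% and 3.96% (-3.75 points, -4.67 to -2.53), and Motif 1 at 0.21% and 2.23% (-2.02 points, -2.76 to -0.914). These low shares were not particular to intergenic peaks. Within genes the DRE core, the DRE and Motif 1 were at 10.4%, 0.071% and 0.213% of summits. At the other intergenic relaxed regions they were at 9.62%, 0.321% and 0.222%. The initiator was at 8.39% of intergenic and 5.77% of promoter summits (2.61 points, 0.197 to 5.59), and the TATA box at 17.2% and 16.9% (0.291 points, -3.24 to 4.24). The CGCG box was at 5.03% of intergenic and 7.77% of promoter summits (-2.74 points, -4.77 to -0.17), and at 7.16% of the other intergenic relaxed regions (-2.12 points, -3.95 to 0.34). Promoter summits held it less often than their own flanks, at 13.4%. Within genes it was at 4.19% of summits and 7.95% of flanks. The heat shock element was at 5.03% of the peaks and 2.20% of those other regions (2.84 points, 1.13 to 5.22). These intervals are not adjusted for the 26 motifs compared. At promoter peaks 9 motifs were called against their flanks, up or down, at peaks within genes 6 and at the other intergenic relaxed regions 0. The CGCG box was among those called, as less frequent than in flanks, at promoter peaks and within genes. The sets differ in number, with 477 intergenic and 2148 promoter peaks.

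Base composition moved with the summits. The summit windows averaged 35.4% G and C at the intergenic summits, against 41.8% in their flanks. The other intergenic relaxed regions had 41.3% at the summit and 40.7% in flanks. Promoter peaks had 37.2% and 45.1%, and peaks within genes 34.1% and 41.8%. At 271 of the 477 intergenic peaks (56.8%) the summit window had less G and C than both flanks, against 33.1% of the other intergenic regions. The part of base composition in the shares of CCGG, CGCG and TATAAA was not tested. By distance class, the TATA box was at 11.5% of the 87 summits nearest to starts, where G and C averaged 37.3%. It was at 17.2%, 16.7% and 16.5% in the next 3 classes, with G and C at 35.2%, 34.4% and 35.9%. At 10 to 20 kb it was at 13 of the 43 summits (30.2%), with G and C at 34.4%.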

How the data were processed

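Peak lists of 2 biological replicates on dm6 were used. Per the file records, the authors made a relaxed list for each replicate and for both pooled, each from the alignments and 1 further file that was the same for all, and derived the IDR list from them. The aligner, the peak caller and the scaling of signal were not given in the sources used here. Lists on dm3 were not used. The signal of each region and its −log10 q value are as deposited by the authors, and no read depth is given. Per the labels, sonication gave sizes of 200 to 800, with no unit stated.

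Summits were placed against Ensembl release 115 on BDGP6.54, without pseudogenes or transposable elements, and sequence came from RefSeq Release 6. Flanking genes are the nearest protein-coding genes whose bodies lie left and right of the summit. Sequences are shown for the 3 strongest members on arms other than 2R, the strongest such member with Motif 1, the farthest member and 2 chosen after their values were seen. The members, gene lists and motifs were chosen with earlier results of these data known. Of the symbols listed, Dl, ladybird and E(spl) were not matched to a protein-coding gene. Genes are named by rule: those flanking the 12 strongest members, the 5 farthest from a start, the 5 fullest gaps and the 3 members and 3 non-members nearest the limit, up to 4 genes of each list by signal, and Camta, Fbxl4 and Cam. For 1 of these gaps the result is not reported here.

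Intervals have a confidence level of 95% and cover counts of peaks only, or of genes for the gene lists. They treat these as independent, which peaks of 1 gap and genes beside the same peak are not. McNemar p-values are exact, two-sided, the larger of both flanks, adjusted over the 26 motifs by the Benjamini-Hochberg method, and the test was tested on simulated data. The simulated windows without planted motifs all came from shuffled flanks. False calls under the lower G and C of the real summits were therefore not tested. Alternatives changed the promoter window, gene set, overlap, number of regions, background, motif windows and replicate. The software was SciPy 1.17.1, statsmodels 0.14.6, pandas 2.3.3, NumPy 2.4.6 and matplotlib 3.10.9 under Python 3.11.15.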

Additional observations from a re-analysis of the deposited data

How the results depend on the processing

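The share of IDR peaks that is intergenic followed the rule: 15.5% with a promoter window of 250 bp, 9.67% with 1000 bp and 14.7% with protein-coding genes alone, against 11.8%. It was 9.8% among the strongest 500 peaks and 10.2% among the strongest 1000, both chosen after seeing the data. Leaving out a replicate, by taking the strongest 4033 regions of the other, gave 11.9% to 12.1%. The share of the 477 peaks found in both replicates was 64.4% when 80% of the length had to be covered, 37.3% over the strongest 2016 regions of each list and 98.3% when 2 times as many regions of each list were taken, against 75.7%. The share over 5 kb was 46.1% when only starts of protein-coding transcripts counted, and 29.4% to 31.0% when a replicate was left out. Against the 228 other relaxed regions with a q value of 0.01 or less, the differences were 0.257 points from 501 to 1000 bp, -1.2 points over 5 kb and, upstream of both genes, 1.28 points. The share of eligible bases over 5 kb was 43.7% between the first and last IDR peaks of the arms. The share upstream of both genes was 28.7% with all annotated genes, and 33.5% to 34.4% without a replicate. The number of motifs called was 1 with flanks at 1000 bp and 0 to 1 without a replicate, the CCGG control each time. With the nearest protein-coding start alone, 2.64% of all protein-coding genes and 12 patterning genes had a peak, against 4.47% and 17, and without a replicate 4.42% to 4.47%. The 4 developmental lists kept counts within 1.5 times under every alternative run. The ratio of the members' median signal to that of all peaks was 0.957 to 0.992 without a replicate, against 0.976. No paired analysis was possible because the study has 1 group. Depth is unknown, so what it limits cannot be stated.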
